A study of Drosophila melanogaster with 20 samples.

Results

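How far the head response of a mated female fly had moved between the second and the third day after mating was read from 8 two-colour arrays, of 20 arrays in the whole series. On 4 of them heads were taken 48 h after mating and on 4 they were taken 72 h after it, and every array set RNA of mated females directly against RNA of virgins of the same age. The measure is the difference in log2 ratio of mated over virgin, 72 h minus 48 h, so that a positive value means a higher ratio at 72 h. Of the 15360 probes on plates 2 to 41 of the print, 2958 had values on at least 2 arrays at each time and were tested, and 1167 had values on all 8 arrays.

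All females, mated and virgin, were wild-type Canton S. They were raised at 25 °C, mated at an age of 5 days and then kept on food until they were frozen. The males were w; P[UAS-dj-GFP], whose sperm tails carry a green fluorescent protein, and mated females were picked by that fluorescence in the abdomen, so that all of them held sperm. Each sample was a pool of about 100 whole heads, with 20 µg of total RNA turned into labelled cDNA. RNA of mated females was labelled with Cy3 on replicates 1 and 2 and with Cy5 on replicates 3 and 4, at both times. A ratio on such an array is a comparison of pools of whole heads, in which fewer cells of a type and less RNA per cell cannot be told apart, and it gives no level by which the tissue itself could be checked against its markers. Since the flies at 72 h were also older, age and time since mating cannot be told apart within either arm, but the virgins were matched for age.

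The head of a fly holds the brain and eyes, muscle, and a layer of fat body, the tissue that combines the storage and metabolic work of liver and adipose tissue. The fat body stores glycogen and triglyceride, secretes proteins into the blood, and makes hexamerin storage proteins, which serve as a reserve of amino acids. Mating starts a programme in the female that raises egg laying and feeding and lowers receptivity, and it is kept up for days by sperm and by seminal fluid peptides bound to them. Egg production draws on the stored nutrients, and enzymes of sugar, lipid and amino acid metabolism are therefore among the genes followed here.

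The deposited table names no genes. A probe has a name here only where it is in the study's lists of top genes, which give 232 of the 2958 probes tested a name. Of these names 72 come from the list at 48 h only, 39 from that at 72 h only, 26 from both and 95 from lists of other times or of brains. The first 3 kinds were selected on the same arrays that are compared here. A gene picked for a large ratio at 48 h is more likely than others to have a smaller one at 72 h, so that no count of such genes is independent evidence of a direction. The 2726 probes with no name and the 95 names from other lists are therefore given beside them.

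The arrays of a time did not all look alike, and this bears on each result below. At 48 h replicates with the same dye correlated at r = 0.581 and 0.704 over probes and those with opposite dyes at 0.136 to 0.437. At 72 h the highest correlations were between replicates 2 and 3 (r = 0.384) and between replicates 1 and 4 (r = 0.346), which had opposite dyes, while replicates 2 and 4 correlated at -0.0842. The same split was seen in the genes that were lower in mated females at 48 h. Over the 75 named genes of the 48 h list that were lower at that time, the median log2 ratio on the 4 arrays at 48 h was -0.95, -1.22, -0.93 and -0.85. At 72 h it was -0.52 on replicate 1, -0.01 on replicate 2, -0.09 on replicate 3 and -0.79 on replicate 4. Replicates 1 and 4 thus still showed most of these genes below 0 (71 of 75 and 68 of 69 values), whereas on replicates 2 and 3 only 34 of 62 and 46 of 74 were. Over the 23 genes of that list that were higher at 48 h, the medians were 0.83, 0.92, 1.30 and 1.44 at 48 h and 0.61, 0.50, 0.18 and 0.34 at 72 h, which is another order of the arrays. An array held values for 2075 to 2875 probes at 48 h and for 3599 to 6466 at 72 h, and their small number limits the precision of every mean.

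The ratios were smaller at 72 h than at 48 h over most of the probes. The SD over probes of the mean log2 ratio was 0.38 at 48 h and 0.24 at 72 h, and the median SD of a probe over its arrays was 0.29 and 0.21. At 48 h 62 probes differed by a log2 ratio of at least 1 (43 lower and 19 higher in mated females), and at 72 h 17 did (11 lower and 6 higher). Of these, 11 were past 1 at both times, all with the same sign. These counts cover only probes with enough values at both times, and the arrays at 48 h held fewer values. Of the 48 h list 75 lower and 23 higher genes were tested, and of the 72 h list 42 and 23. Strong genes at 72 h without values at 48 h are thus left out, and their weight in these counts was not tested. The absolute mean ratio was smaller at 72 h for 1941 of the 2958 probes and for 1768 of the 2726 with no name. It was smaller for all 72 genes named from the 48 h list alone, for 14 of the 39 named from the 72 h list alone and for 64 of the 95 named from other lists. A smaller spread over arrays, as at 72 h, by itself makes the absolute mean of an unchanged probe smaller. Its share in these counts was not tested. Mean ratios at the 2 times correlated at r = 0.46 over probes, which share the print and the arrays of each time and are not independent.

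**Figure D1:**
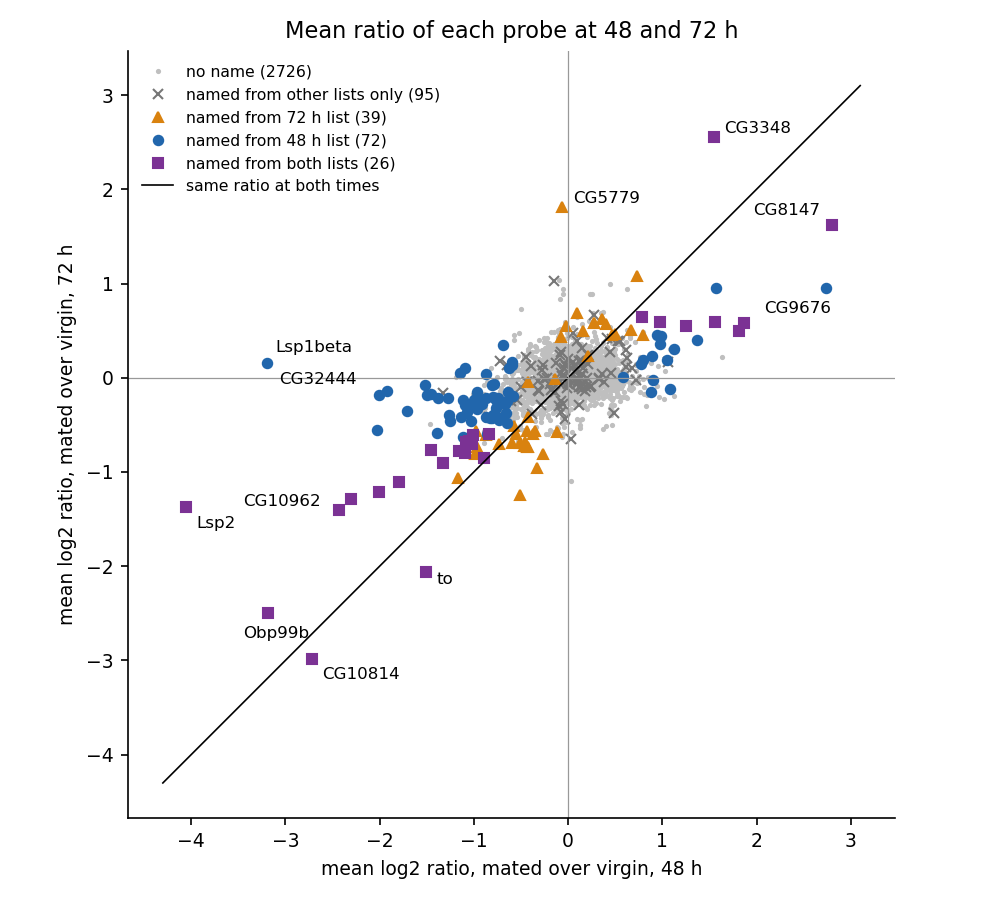
Mean log2 ratio of mated over virgin of each of the 2958 probes at 48 h (x axis) and at 72 h (y axis), with named genes marked by the list their name comes from and a line where both ratios are the same. Most genes of the 48 h list lie nearer to 0 on the y axis than on the x axis, Lsp1beta stands at -3.19 and 0.16, and CG5779 (-0.06 and 1.81) and CG3348 (1.55 and 2.55) lie above the line on the right or near 0.

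In limma's test of the difference, with Benjamini-Hochberg adjustment over all 2958 probes, 9 probes (0.304%) had an adjusted p under 0.05. At 72 h the ratio was higher for 7 of them (0.237%) and lower for 2 (0.0676%). All 9 have names, and every name comes from the 48 h list, in the case of Lsp2 and CG8343 from the 72 h list too. The lowest adjusted p among the probes with no name was 0.18. At an unadjusted p under 0.05 from limma there were 295 probes (9.97%), 177 of them higher (5.98%) and 118 lower at 72 h (3.99%). This share was 8.00% of the probes with no name, 9.47% of the genes named from other lists, 7.69% of those named from the 72 h list only and 76.4% of those named from the 48 h list only. Of the 75 genes of the 48 h list that were lower at 48 h, 48 (64.0%) were higher at 72 h at that p. Of the 23 that were higher at 48 h, 16 were lower at 72 h. Gene groups below with names from that list stand beside these shares, which the choice of the list favours. Among the 1167 probes with 8 values the groups did not overlap for 78 (6.68%), which were higher at 72 h for 56 (4.8%) and lower for 22 (1.89%). The smallest p that an exact two-sided permutation test of 4 against 4 arrays can give is 0.0286, so that no single gene could pass an adjustment by that test.

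The 9 calls depended on single arrays, on the scale of the arrays and on the terms of the fit. No probe passed the adjusted threshold without replicate 1 or 3 at 48 h or without replicate 2 or 3 at 72 h (241, 268, 214 and 176 probes had an unadjusted p under 0.05 from limma), 4 passed without replicate 1 at 72 h, and 7 to 10 passed in the other 3 cases. With each array centred and scaled to the same median absolute deviation only CG5779 passed, and the differences of the 9 genes were then smaller, such as 1.91 for Lsp2 and 2.88 for Lsp1beta, with the same signs. That deviation was taken over all probes an array held, 2075 to 2875 at 48 h and 3599 to 6466 at 72 h. Scaling thus rests on unlike sets of probes, and it also removes any general difference in the size of ratios between the times. With a term for the dye, CG10516 and Lsp1beta passed (adjusted p = 0.0468 each from limma) and the other 7 had an adjusted p of 0.0511 to 0.0992, among them CG9676 at 0.0511, CG32444 at 0.0618 and Lsp2 at 0.0873. In a fit of all 20 arrays CG10516, CG9485, CG32444 and Lsp2 passed (adjusted p = 0.0187 to 0.0418 from limma), while CG8343 and CG9515 had 0.208 and 0.579. Lsp1beta, CG3699 and CG9676 had 0.131, 0.186 and 0.579 there, but they lie on plates after 30, which held other genes at 0-2 and 24 h. Their variance in that fit comes in part from other genes, so that it cannot test them. With the replicate number as a block, which the arrays of the 2 times share without being paired, none passed (adjusted p = 0.156 to 0.28 from limma for the 9, and 175 probes at an unadjusted p under 0.05).

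Both storage proteins that were measured had a far lower ratio at 48 h than at 72 h. Lsp2, a hexamerin of the larval and adult fat body, had log2 ratios of -3.71, -3.99, -4.95 and -3.56 on the 4 arrays at 48 h and of -1.60, -0.77, -0.46 and -2.64 at 72 h. It was lower in mated females on all 8 arrays, the groups did not overlap, and at 72 h replicates 1 and 4 were the lower ones. The mean went from -4.05 ± 0.62 (SD, n = 4), 16.6-fold lower in mated heads, to -1.37 ± 0.98 (SD, n = 4), 2.58-fold lower. The difference was 2.69 (SE 0.45, 95% interval 1.70 to 3.67, adjusted p = 0.0426 from limma). It was 2.66 in the arrays with mated RNA in Cy3 and 2.71 in those with Cy5, and 2.38 to 3.11 when one array was left out.

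Lsp1beta, a subunit of the other class of larval serum protein, had ratios of -2.68, -3.05, -3.99 and -3.02 at 48 h and of -1.12, 0.64 and 0.96 on replicates 1, 2 and 3 at 72 h, with no value on replicate 4. At 48 h it was lower in mated females on every array, and at 72 h it lay on both sides of 0. Its difference of 3.35 (SE 0.47, 95% interval 2.30 to 4.40, adjusted p = 0.0277 from limma) was the largest of all probes tested, with means of -3.19 ± 0.56 (SD, n = 4) and 0.16 ± 1.12 (SD, n = 3). Without one array it was 2.95 to 3.99.

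Of the 5 other secreted proteins of the fat body that were measured, 4 had a positive difference, as the storage proteins did (3 with scaled arrays, where that of Obp99b was negative), and takeout had a negative one. None of the 5 passed the adjusted test, 1 was higher at 72 h at an unadjusted p under 0.05 (background 5.98%, and 64.0% for genes of the 48 h list lower then), and the median difference was 0.42, against -0.00242 over all probes. Of the 5 names, 4 come from the 48 h or 72 h list. Transferrin (Tsf1), which carries iron, had a difference of 0.39 (95% interval -0.21 to 0.99). Obp99a and Obp99b, odorant-binding proteins that are also made by fat body, had differences of 0.80 (SE 0.34, unadjusted p = 0.0392 from limma) and 0.69 (SE 0.38). Obp99b was still at -2.71, -1.85 and -2.94 on 3 arrays at 72 h, against -3.60 and -2.77 on 2 at 48 h, and the groups overlapped. With scaled arrays its difference was -1.03.

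takeout (to), a secreted protein known for its role in feeding and starvation, differed in the other direction. It was at -1.46, -1.56, -1.21 and -1.82 at 48 h and at -1.91, -2.64 and -1.63 at 72 h, lower in mated females on all 7 arrays. The difference was -0.55 (95% interval -1.12 to 0.01, unadjusted p = 0.0551 from limma). For fit, a satiety factor of female fat body, the difference was 0.42 (SE 0.29), but it was -0.09 in the arrays with mated RNA in Cy3 and 0.94 in those with Cy5. Of the 7 fat body markers, 6 had a higher mean at 72 h and takeout a lower one, and with scaled arrays Obp99b and bmm were lower too. Their mean ratios ran from -4.05 to -0.73 at 48 h and from -2.50 to 0.16 at 72 h.

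**Figure D2:**
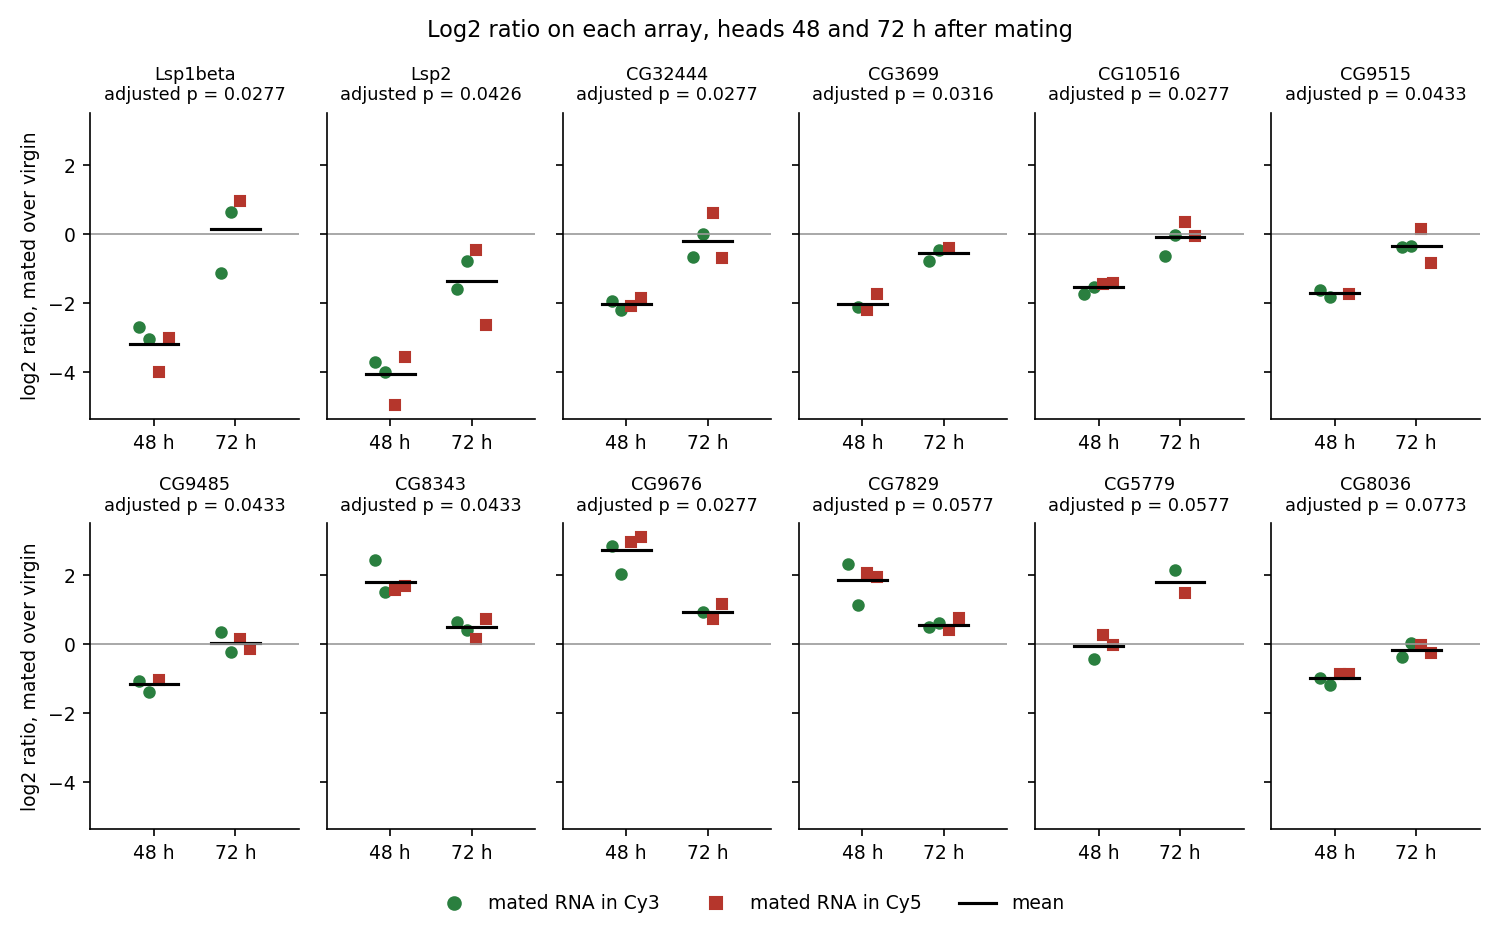
Log2 ratio of mated over virgin on each array at 48 and 72 h for the 9 genes with an adjusted p under 0.05 and 3 others. These 3 have the next lowest p among the genes chosen by the naming rule. Crk, with values on only 2 arrays at 48 h, was not chosen by it and is not drawn (difference -1.20, adjusted p = 0.0773 from limma). Circles and squares mark the dye of the mated RNA and a line marks the mean. For the 9 genes no array at 72 h lies within the range of those at 48 h, and at 72 h Lsp2 spreads from -2.64 to -0.46.

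Enzymes of glycogen and sugar metabolism were lower in mated heads at 48 h and, apart from CG11909, had mean ratios near 0 at 72 h. All 7 members measured had a positive difference and an unadjusted p under 0.05 (background 5.98% for higher probes, 64.0% for genes of the 48 h list lower then), and 2 passed the adjusted test. Their median ratio was -0.87 at 48 h and -0.07 at 72 h, with a median difference of 0.91. On the arrays at 72 h the median over the members was -0.25, 0.01, 0.17 and -0.50, so that replicates 1 and 4 were again the lower ones. Of the 7 names, 6 come from the 48 h or 72 h list.

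CG32444, an aldose 1-epimerase, which turns sugars such as galactose between their ring forms, had ratios of -1.95, -2.19, -2.08 and -1.84 at 48 h and of -0.66, 0.01, 0.62 and -0.70 at 72 h. The arrays at 48 h were close together and every array at 72 h was above them. The difference was 1.83 (SE 0.27, adjusted p = 0.0277 from limma), from 4.04-fold lower in mated heads to 1.14-fold lower. CG9485, the glycogen debranching enzyme, had -1.05, -1.37 and -1.04 on replicates 1, 2 and 3 at 48 h and 0.36, -0.21, 0.17 and -0.13 at 72 h. All its values at 48 h were below 0 and those at 72 h lay around 0. Its difference was 1.20 (SE 0.20, adjusted p = 0.0433 from limma).

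The other members of this group had smaller differences that missed the adjusted threshold. Phosphoglucose isomerase (Pgi), phosphoglucomutase (Pgm) and the glycogen branching enzyme CG33138 had 0.73, 0.91 and 0.72, with mean ratios of -0.81, -0.87 and -0.79 at 48 h and -0.08, 0.04 and -0.07 at 72 h. Tpi, triose phosphate isomerase, whose name comes from another list, had 0.78 (unadjusted p = 0.0119 from limma). CG11909 (tobi), an alpha-glucosidase that responds to insulin-like and adipokinetic signals, was at -2.52, -2.42, -2.58 and -1.66 at 48 h and at -1.61, -0.64, -0.69 and -2.23 at 72 h. Its groups overlapped, through replicate 4 at both times, and it was still 2.45-fold lower in mated heads at 72 h (difference 1.00, SE 0.35, adjusted p = 0.36 from limma). sugarbabe (sug), a zinc-finger factor induced by sugar, was above 0 on all 4 arrays at 72 h (0.25, 0.70, 0.75 and 0.60) and on 3 of 4 at 48 h (0.15, -0.18, 0.30 and 0.80). Its difference of 0.31 had an interval from -0.17 to 0.79.

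The pentose phosphate pathway, which supplies NADPH for fat synthesis and ribose for nucleotides, was measured through 4 enzymes, listed together with malic enzyme (Men), another source of NADPH. All 5 had a positive difference (Men a negative one with scaled arrays), and all 5 names come from the 48 h or 72 h list. The 4 enzymes of the pathway were higher at 72 h at an unadjusted p under 0.05 (background 5.98%, and 64.0% for genes of the 48 h list lower then), none of the 5 passed the adjusted test, and the median ratio was -1.0 at 48 h and -0.22 at 72 h. CG8036, a transketolase, was at -0.98, -1.18, -0.86 and -0.85 at 48 h and at -0.37, 0.05, -0.02 and -0.26 at 72 h, with no overlap. Its difference was 0.82 (SE 0.16, adjusted p = 0.0773 from limma). Transaldolase (Tal) was at -1.13, -1.40, -1.36 and -1.17 at 48 h and at -0.36, 0.18 and -0.49 at 72 h, a difference of 1.04 (SE 0.20, adjusted p = 0.0788 from limma). For both enzymes every array at 72 h was above those at 48 h, which were close together. Pgd, the dehydrogenase of 6-phosphogluconate, had 0.76 and the lactonase CG17333 had 0.77. Men had means of -1.16 ± 0.44 at 48 h and -0.78 ± 0.33 at 72 h (SD, n = 4 each) and a difference of 0.38 (unadjusted p = 0.147 from limma).

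Genes of lipid metabolism did not all differ the same way. Of the 11 measured 5 were higher at 72 h at an unadjusted p under 0.05 (background 5.98%), none passed the adjusted test, and 2 had a negative difference (CG4825 at -0.14 and Hmgs at -0.16, both positive with scaled arrays, where those of AcCoAS, bmm and dob were negative). Of the 11 names, 9 come from the 48 h or 72 h list, and 64.0% of the genes of the 48 h list lower then were higher at 72 h at that p. The 5 with the low p follow, and whether all of them act on fatty acids in these heads was not tested. CG9914 (Had1), a hydroxyacyl-CoA dehydrogenase, was at -1.14, -1.84, -1.30 and -1.24 at 48 h and at -0.31, 0.03, 0.14 and -0.75 at 72 h. Its arrays did not overlap, and the difference was 1.16 (SE 0.23, adjusted p = 0.0782 from limma). CG3902, an acyl-CoA dehydrogenase, had 0.86 (SE 0.23), CG9577, an enoyl-CoA hydratase, 0.74, CG3415 (Mfe2), a peroxisomal enzyme of beta-oxidation, 0.50, and CG6783, a fatty acid binding protein, 1.17. The last of these has its name from another list and had values on only 2 arrays at 48 h.

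brummer (bmm), the triglyceride lipase of the fat body, was at -1.03, -0.38 and -0.79 at 48 h and at -0.78, -0.28, -0.95 and -0.80 at 72 h, a difference of 0.03 (unadjusted p = 0.888 from limma). Its relative dob, with values on only 2 arrays at 48 h and 3 at 72 h, had 0.41 (95% interval -0.38 to 1.19), and acetyl-CoA synthetase (AcCoAS) had 0.02 (means -0.43 ± 0.22 and -0.42 ± 0.14, SD, n = 4 each). Lsd-1, a perilipin that coats the lipid droplet, had 0.17.

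Of 18 enzymes of amino acid and one-carbon metabolism, 6 were higher at 72 h at an unadjusted p under 0.05 (background 5.98%, and 64.0% for genes of the 48 h list lower then) and none lower (background 3.99%). The median difference was 0.34 and none passed the adjusted test, and 14 of the 18 names come from the 48 h or 72 h list. CG10361 (Gcat), which splits the breakdown product of threonine into glycine and acetyl-CoA, was at -1.65 and -1.25 on replicates 2 and 4 at 48 h and at -0.42, 0.12, 0.01 and -0.38 at 72 h. The groups were apart, but with only 2 arrays at 48 h (difference 1.28, SE 0.24, adjusted p = 0.0834 from limma). CG10621, a homocysteine methyltransferase, was lower in mated heads on all 4 arrays at 48 h (-0.33, -0.95, -0.87 and -0.63) and higher on 3 of 4 at 72 h (0.05, 0.73, 1.00 and -0.38), a difference of 1.04 (SE 0.29, adjusted p = 0.248 from limma). Here too replicates 2 and 3 were the higher ones. astray (aay), the phosphatase of the last step of serine synthesis, had 0.66, CG15093, a hydroxyisobutyrate dehydrogenase, 0.68, and CG3011 (Shmt), which passes a carbon from serine to folate, 0.40.

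CG6385 (sarcosine dehydrogenase), of the same list, was at -0.89 ± 0.19 and -0.85 ± 0.52, and CG3999, a subunit of the glycine cleavage system, at -0.99 ± 0.88 and -0.81 ± 0.13 (SD, n = 4 each). The aminotransferases Got1 and Got2 had differences of 0.24 and 0.39, with means of -0.60 and -0.61 at 72 h. CG8745, another aminotransferase, was higher in mated heads at both times (1.57 ± 0.59 and 0.95 ± 0.85, SD, n = 4 each), with a difference of -0.62 (95% interval -1.51 to 0.27). CG17691 (BckdhB), a subunit of the complex that degrades branched-chain amino acids, was near 0 at 48 h (-0.07 ± 0.20) and at 0.43 ± 0.17 at 72 h (SD, n = 4 each), with no overlap and a difference of 0.49 (unadjusted p = 0.0115 from limma, adjusted p = 0.331).

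Of the 4 enzymes of purine synthesis measured, 2 were higher at 72 h at an unadjusted p under 0.05 (background 5.98%, and 64.0% for genes of the 48 h list lower then), and 3 of the 4 names come from the 48 h or 72 h list. Prat2, the amidotransferase of the first committed step, was at -1.55, -1.46 and -1.35 on replicates 1, 2 and 4 at 48 h and at -0.65, -0.36, -0.81 and -1.26 at 72 h, and CG11089, which carries out the last steps, had means of -0.77 ± 0.09 and -0.32 ± 0.20 (SD, n = 4 each). Both were lower in mated heads on every array with a value, and neither overlapped between times (differences 0.68 and 0.45, adjusted p = 0.331 and 0.35 from limma). ade3, which acts between these steps, had 0.29 (negative with scaled arrays), and burgundy (bur), the GMP synthetase, was near 0 at both times (0.03 and 0.10).

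Of the other genes with an adjusted p under 0.05, CG3699, a short-chain dehydrogenase, was at -2.12, -2.21 and -1.74 on replicates 2, 3 and 4 at 48 h and at -0.77, -0.47 and -0.41 on replicates 1, 2 and 3 at 72 h. The difference was 1.48 (SE 0.21, adjusted p = 0.0316 from limma), and all 6 values were below 0. CG10516 was at -1.74, -1.53, -1.43 and -1.40 at 48 h and at -0.62, -0.01, 0.35 and -0.05 at 72 h, with means of -1.52 ± 0.16 and -0.08 ± 0.40 (SD, n = 4 each). Its groups did not overlap, and the difference of 1.44 (SE 0.21, adjusted p = 0.0277 from limma) was 1.32 with mated RNA in Cy3 and 1.56 with Cy5. CG9515 was at -1.61, -1.81 and -1.72 on replicates 1, 2 and 4 at 48 h and at -0.37, -0.35, 0.16 and -0.83 at 72 h. Its difference was 1.36 (SE 0.23, adjusted p = 0.0433 from limma), and no array at 72 h reached the values at 48 h.

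Further genes with a large positive difference missed the adjusted threshold. smp-30, a member of the senescence marker protein family, had a difference of 1.78 (SE 0.39, adjusted p = 0.155 from limma), from 3.78-fold lower in mated heads to 1.10-fold lower. CG7322 went from -1.50 ± 0.29 to -0.18 ± 0.75 (SD, n = 4 each). It had no overlap, although the arrays at 72 h spread from -0.94 to 0.68. Nplp3, the precursor of a neuropeptide-like product, was at -1.03, -0.87 and -1.38 at 48 h and at -0.14, 0.79, 0.21 and -0.45 at 72 h (difference 1.19, adjusted p = 0.18 from limma). CG10962, another dehydrogenase, was at -2.57 and -2.30 on replicates 2 and 3 at 48 h and at -1.45, -1.26 and -1.49 on 3 arrays at 72 h. It stayed 2.64-fold lower in mated heads, and with scaled arrays its difference of 1.03 became -0.06.

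The carnitine synthesis gene CG10814, a gamma-butyrobetaine dioxygenase, showed no such shift of its ratio toward 0. Its ratios were -1.65, -2.49, -2.95 and -3.79 at 48 h and -2.76, -2.0, -3.09 and -4.06 at 72 h. The means of -2.72 ± 0.89 and -2.98 ± 0.85 (SD, n = 4 each) gave a difference of -0.26 (95% interval -1.30 to 0.79), and it had the lowest mean ratio of all probes at 72 h. CG5321, the other member of this group, had 0.29.

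Genes that were higher in mated heads at 48 h also had ratios nearer to 0 at 72 h, and several encode serine peptidases, which cleave other proteins. The absolute ratio was smaller at 72 h for 22 of the 23 such genes of the 48 h list, as it was for 73 of the 75 that were lower and for 1941 of all 2958 probes. That list was drawn from the 48 h arrays, so that this direction is favoured by the choice. Of the 6 peptidases measured, 4 were lower at 72 h at an unadjusted p under 0.05 (background 3.99% for lower probes, and 16 of the 23 genes of the 48 h list higher then) and 1 passed the adjusted test, with a median difference of -0.83. CG9676 was at 2.84, 2.05, 2.98 and 3.11 at 48 h and at 0.93, 0.75 and 1.16 on replicates 2, 3 and 4 at 72 h. It was higher in mated heads on all 7 arrays, at 6.70-fold and then 1.93-fold, with no overlap, and its difference of -1.80 (SE 0.26, adjusted p = 0.0277 from limma) was the most negative of all probes. CG7829 was at 2.33, 1.13, 2.08 and 1.95 at 48 h and at 0.51, 0.61, 0.42 and 0.77 at 72 h, which is a difference of -1.30 just outside the threshold (SE 0.24, adjusted p = 0.0577 from limma).

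CG8329 and CG3088, the other peptidases with a negative difference, had -0.97 (adjusted p = 0.18) and -0.70 (adjusted p = 0.425 from limma). They remained above 0 on all 4 arrays at 72 h, between 0.26 and 0.93 and between 0.21 and 0.93. CG5390, which was lower in mated heads at 48 h (-0.81), had 0.38, and CG11841 stayed near 0 (-0.10 and -0.06). Of the peptidase inhibitors, which keep such enzymes in check, CG10031 was at 0.92, 0.73 and 1.06 at 48 h and at 0.18, -0.03 and -0.19 at 72 h, a difference of -0.92 (adjusted p = 0.155 from limma). CG16704 and CG16712 were at -0.44 and -0.05 at 48 h and at -0.73 and -0.28 at 72 h. All of the 4 peptidases with a negative difference and CG10031 have their names from the 48 h list.

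CG8343 was the other gene with an adjusted p under 0.05 in this direction. It was at 2.46, 1.53, 1.59 and 1.68 at 48 h and at 0.66, 0.41, 0.17 and 0.73 at 72 h, and replicate 1 at 48 h stood above the other arrays. The groups did not overlap, and the difference was -1.32 (SE 0.23, adjusted p = 0.0433 from limma), from 3.52-fold to 1.41-fold higher in mated heads. RSG7, a regulator of G protein signalling, went from 0.83, 1.03 and 0.78 to 0.13, -0.42 and -0.15 (difference -1.03, adjusted p = 0.118 from limma). CG9449, an acid phosphatase, had -0.98 and A3-3 (Atf3), a stress-responsive transcription factor, -0.86. CG5791 (BomBc3), one of the Bomanin peptides of the Toll response, had -0.66, with overlapping arrays.

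**Figure D3:**
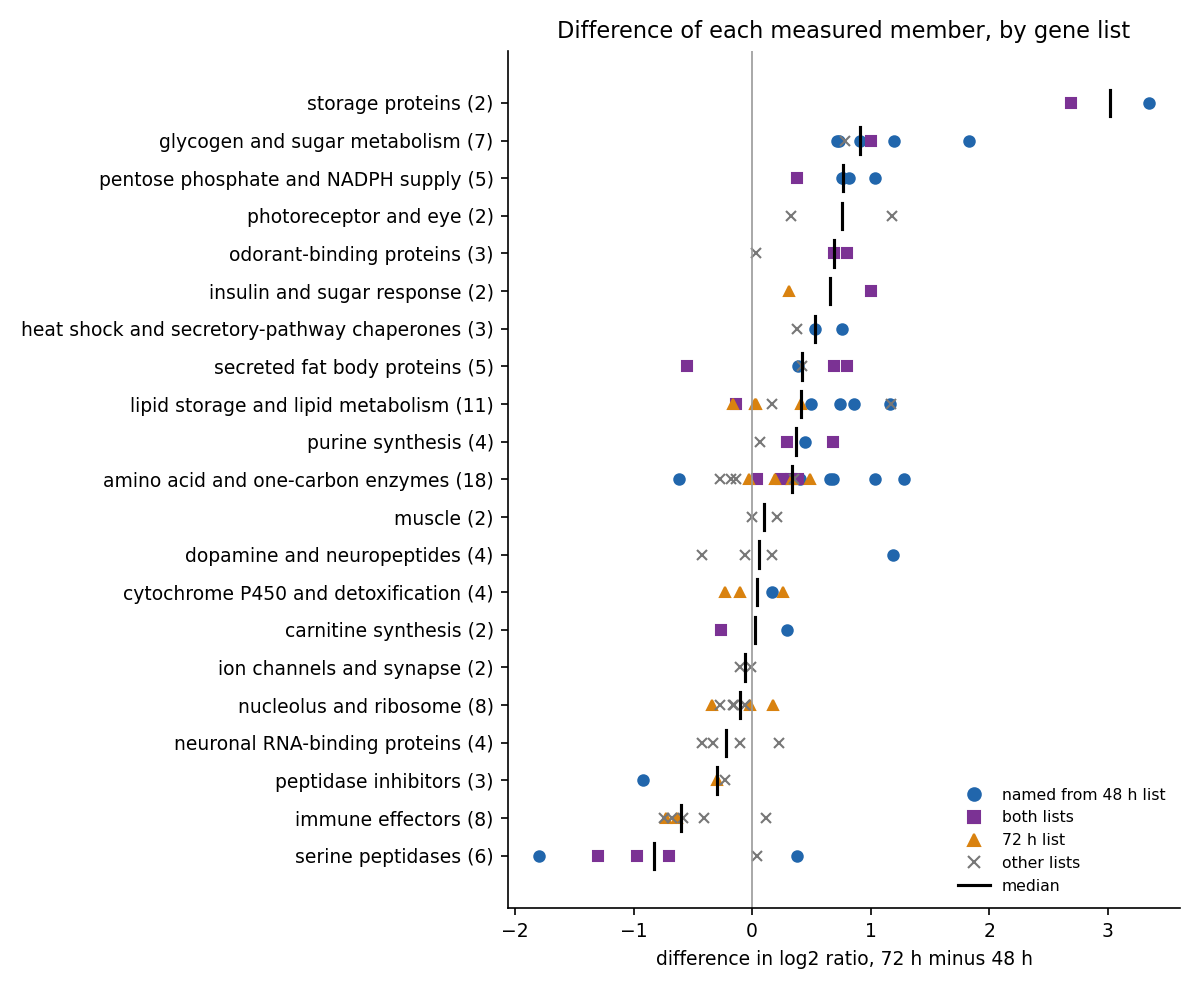
Difference in log2 ratio, 72 h minus 48 h, of each measured member of 21 gene lists, with the number measured in brackets, the list a name comes from as the symbol and the list's median as a line. All 7 members of glycogen and sugar metabolism lie above 0, 4 of the 6 serine peptidases lie between -1.80 and -0.70, and the list of nucleolus and ribosome runs from -0.34 to 0.18.

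The absolute ratio was larger at 72 h than at 48 h for 1017 of the 2958 probes, 958 of the 2726 with no name and 25 of the 39 genes named from the 72 h list alone. Of the 15 genes named from the 72 h list alone that were higher at 72 h, 11 had a larger absolute ratio then, and of the 24 that were lower, 14 did. That list was drawn from the 72 h arrays, so that this direction is favoured by the choice. CG5779 (PPO1), a prophenoloxidase of blood cells that makes melanin, was at -0.42, 0.26 and -0.01 on replicates 2, 3 and 4 at 48 h and at 2.15 and 1.48 on replicates 2 and 3 at 72 h. At 72 h it had no value on replicates 1 and 4, the arrays nearer to the 48 h ratios. The difference of 1.87 (SE 0.29, adjusted p = 0.0577 from limma), 3.66-fold, had an adjusted p of 0.021 with scaled arrays. In a fit of all 20 arrays it was 0.0418, but this probe lies on a plate that held other genes at 0-2 and 24 h. That fit draws variance from another gene and cannot test CG5779. The adjusted p was 0.0618 with a dye term, 0.452 with the replicate block and 0.0581 to 0.112 when one array was left out, all from limma. nimB4, the other blood cell marker measured, was at -0.07 and 0.05.

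CG3348, which encodes a predicted chitin-binding protein, was at 0.73, 1.37, 2.11 and 1.97 at 48 h and at 3.06, 2.63 and 1.96 on replicates 1, 2 and 3 at 72 h. It was higher in mated heads on all 7 arrays, 2.92-fold and then 5.84-fold, and had the highest mean of all probes at 72 h. The groups overlapped, and the difference of 1.00 (SE 0.36) had an unadjusted p of 0.0186 and an adjusted p of 0.377 from limma. CG8147 (phu), an alkaline phosphatase, was also higher at both times but spread too widely for a comparison, with 1.60, 2.07, 2.46 and 5.07 at 48 h and 2.82, 2.27, 0.10 and 1.27 at 72 h. Its difference was 0.71 in the arrays with mated RNA in Cy3 and -3.08 in those with Cy5.

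Antibacterial genes had their lowest ratios at 72 h on one array. Of 8 immune effectors measured, 6 had a negative difference and 2 a positive one (CG5779 and nimB4, described above), with a median of -0.60. At an unadjusted p under 0.05, 1 was lower at 72 h (Rel, background 3.99%) and 1 was higher (CG5779, background 5.98%), and CG5779 had the largest difference of the 8. Attacin-A (AttA) was at 0.18, 0.02, -0.16 and 0.10 at 48 h and at -0.01, -0.42, -0.42 and -1.75 at 72 h. Attacin-C (AttC) and Diptericin (Dpt) had differences of -0.63 and -0.73 (unadjusted p = 0.057 and 0.0706 from limma). Replicate 4 at 72 h had the lowest values of all 3 (-1.75, -1.99 and -1.88), and the arrays of the times overlapped. Relish (Rel), the NF-kappaB factor that drives these genes, was at 0.01, -0.10, 0.20 and 0.38 at 48 h and at -0.21, -0.20 and -0.45 at 72 h. It did not overlap, but its difference of -0.41 had an adjusted p of 0.481 from limma. TotA and TotC, stress-induced Turandot peptides, had -0.74 and -0.58.

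Neuronal, eye, muscle and ribosomal genes showed no difference past the adjusted test. cac, a calcium channel, and cpx, complexin, had differences of -0.10 and -0.01, but the intervals ran from -1.04 to 0.83 and from -0.85 to 0.84. The 4 arrays at 48 h spread from -0.69 to 1.33 for cac and from -1.13 to 0.98 for cpx. sNPF, a neuropeptide precursor, had -0.06, and pale (ple), tyrosine hydroxylase, -0.42 (unadjusted p = 0.0633 from limma). Of the RNA-binding proteins heph and sm had -0.42 and -0.33 with overlapping arrays. retinin, a protein of the corneal lens, was at 0.30, 3.71, 1.15 and -1.02 at 72 h, so that its difference of 1.18 had an SE of 0.76, and Rh5, an opsin, had 0.33. The muscle genes Act57B and Tm1 had 0.21 and 0.00. The nucleolar and ribosomal genes were above 0 at both times in their median (0.47 and 0.40). RpS20 was at 0.17, 0.18, 0.13 and 0.14 at 48 h and at 0.11, -0.10, -0.15 and -0.34 at 72 h, with no overlap and a difference of -0.27 (adjusted p = 0.591 from limma), while RpS9 had -0.34. PebIII, the marker of the male ejaculatory bulb, was at 0.21 and 0.24.

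The chaperone DnaJ-1, of the Hsp40 family, was below 0 on all 4 arrays at 48 h (-0.65, -0.42, -0.70 and -0.61) and not below -0.21 at 72 h (0.00, -0.21, 0.30 and 0.59). Its difference was 0.76 (SE 0.19, adjusted p = 0.18 from limma). P58IPK, a cochaperone of the endoplasmic reticulum, had 0.53. The detoxification genes Cyp28d1, Cyp6g1, Cyp9b2 and alpha-Est2 were lower in mated heads at both times, with means from -0.87 to -0.46 at 48 h and from -0.69 to -0.48 at 72 h. None of these 4 had an unadjusted p under 0.05, and their differences lay between -0.23 and 0.26.

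The earlier time points place the difference in the course of the response. Only probes on plates 2 to 30 can be followed there, since other plates held other genes at 0-2 and 24 h. Lsp2 had a mean of 0.96 at 0-2 h and -4.21 at 24 h before -4.05 and -1.37, so that its lowest values were at 24 and 48 h. CG10516 (0.03, -1.15, -1.52 and -0.08), CG9914 (-0.33, -1.40, -1.38 and -0.22) and smp-30 (-0.47, -2.01, -1.92 and -0.14) had the same shape over the 4 times. CG10621 was lowest at 24 h (0.78, -1.69, -0.69 and 0.35).

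The genes that were higher in mated heads peaked at 48 h in part. CG8343 had 0.23, 0.65, 1.81 and 0.50 and CG7829 0.40, 0.97, 1.87 and 0.58. CG3348 had 0.82, 1.83, 1.55 and 2.55, and was highest at 72 h. A further 17 genes were named from the 24 h list and from neither the 48 h nor the 72 h list. Of these, 4 of 11 that were lower at 24 h had a higher ratio at 72 h than at 48 h at an unadjusted p under 0.05 (background 5.98%), and 9 of the 11 had a positive difference. Of the 6 that were higher at 24 h, 1 had a lower ratio at 72 h at that p (background 3.99%) and 5 had a negative difference. These 17 genes were absent from the 48 h and the 72 h list, so that they too were selected on the arrays compared here. Absence favours small ratios at 48 h and at 72 h, and a ratio near 0 at 72 h lies in the direction of these counts. Among 31 genes named from the 0-2 h list but not from the later head lists, 9.68% had an unadjusted p under 0.05, and among 47 named from brains alone 2.13%, against 9.97% of all probes.

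**Figure D4:**
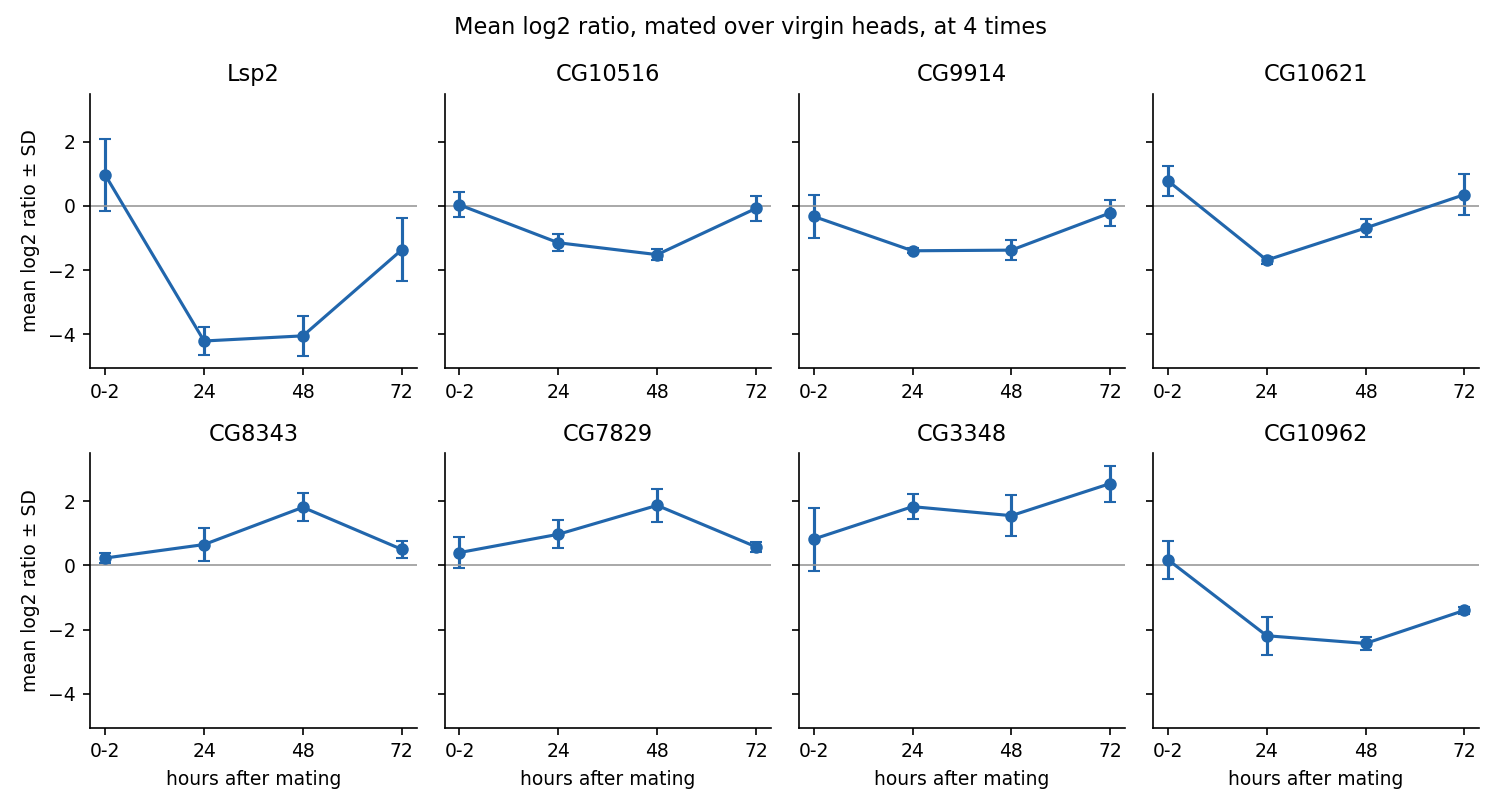
Mean log2 ratio of mated over virgin heads at 0-2, 24, 48 and 72 h (x axis) for 8 genes on plates 2 to 30, with the SD over 2 to 4 arrays as error bars. Lsp2 lies at -4.21 and -4.05 at 24 and 48 h and at -1.37 at 72 h, CG8343 and CG7829 are highest at 48 h, and CG3348 is highest at 72 h.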

How the data were processed

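Labelled cDNA of mated and virgin heads was hybridised to glass oligonucleotide arrays. The authors deposited 1 table of log2 ratios of mated over virgin per array, normalized and turned for the dye swap, with empty cells; limma is named in the submitters' processing notes. The sources used here do not give the scanner, background correction, normalization or rule for empty cells. Control rows (32) and plate 1 (384 rows, none with 2 values at each time) were left out. Names were taken by matching the mean ratio (relative tolerance 2e-05) and the number of values in the study's 5 lists of 100 genes to a row. The p was used only where more than 1 row matched. Of 499 entries 495 matched 1 row, and 356 of 363 named rows were found in the RefSeq gene table (Release 6). Sequences and coordinates were not used here.

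The difference was fitted by lmFit and eBayes of limma 3.58.1, under R 4.3.3, on the 8 arrays, with no block or dye term. Single genes with 8 values were also given an exact two-sided permutation test. The fit was tested on simulated data. Tables were made in Python 3.11.15 with numpy 2.4.6 and pandas 2.3.3. Alternatives were the samples fitted, a replicate block, a dye term, centring, scaling, filters on empty cells, plate 1, robust variance, array weights, each array left out and, chosen after the data had been seen, each dye orientation alone. The labels call the samples independent; same-numbered arrays of the 2 times share only a number and a dye.

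The text names the genes past the adjusted threshold and the 2 lowest p of each gene list. It also names the 10 most positive and 10 most negative differences of named genes. These were taken among genes with at least 3 values at each time and an unadjusted p under 0.05 from limma. Larger differences with a higher p were thus left out, such as -0.89 for CG11501 (unadjusted p = 0.0598 from limma). Lsp2, Lsp1beta, fit, to, Obp99a, Obp99b, CG8147, CG3348, CG9676, CG10814 and CG10962 were named in any case. Further members of the lists are given after their values were seen. Members and lists were chosen with earlier results of these data known.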

Additional observations from a re-analysis of the deposited data

Results flagged for a closer look

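The difference between 72 h and 48 h passed limma's adjusted test for 9 genes: 3.35 for Lsp1beta, 2.69 for Lsp2, 1.83 for CG32444, 1.48 for CG3699, 1.44 for CG10516, 1.36 for CG9515, 1.20 for CG9485, -1.32 for CG8343 and -1.80 for CG9676 on the log2 scale. Adjusted p ran from 0.0277 to 0.0433, and all of these genes lost the call when replicate 1 or 3 at 48 h or replicate 2 or 3 at 72 h was left out, and with the replicate block.

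In 5 of 80 groups of 4 values that were looked at, 1 array lay apart from the other arrays of its group. Chance gives this in about 1 in 20 groups. They were replicate 2 at 72 h for Act57B, at -0.04 against 0.27 to 0.30. CG11909 had -1.66 on replicate 4 at 48 h, against -2.58 to -2.42, and CG16704 had -1.07 on replicate 4 at 72 h, against -0.67 to -0.58. CG8343 had 2.46 on replicate 1 at 48 h, against 1.53 to 1.68. Rh5 had 0.83 on replicate 1 at 48 h, against -0.50 to -0.28.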

How the results depend on the processing

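The number of probes with an adjusted p under 0.05 was 9 in the fit reported, 5 with all 20 arrays in one fit, 2 with a dye term (CG10516 and Lsp1beta), 1 with scaled arrays, 4 with values required on all 4 arrays (1167 probes tested), 16 with array weights, and 0 within either dye orientation alone (1856 and 1587 probes tested, 255 and 200 at an unadjusted p under 0.05 from limma). It was 0 to 10 when 1 array was left out, and 8 to 10 under the other settings. The fits of all head arrays (8 probes) and of all 20 arrays (5, among them CG5779) include plates after 30. Those plates held other genes at 0-2 and 24 h, so that both counts rest in part on rows that mix genes. At an unadjusted p under 0.05 from limma, 295 probes became 124 with values on all 4 arrays and 176 to 332 when 1 array was left out. The numbers of the replicates did not pair the samples: deviations of same-numbered arrays correlated at -0.319 to 0.155. With the replicate block no probe passed the adjusted threshold and 175 of 2735 had an unadjusted p under 0.05.

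The 9 genes with a call kept their direction under every setting that could be fitted. Among the genes chosen by the naming rule, the sign turned with scaled arrays for CG10962 (-0.06), Obp99b (-1.03), alpha-Est2 (-0.05) and Tm1 (-0.13), and in one dye orientation for CG8147 (0.71), fit (-0.09), sm (0.08), cac (0.63), cpx (0.88) and Tm1 (-0.09). For Tm1 it also turned with centred arrays (-0.01) and array weights (-0.08), for cac with the block (0.29) and array weights (0.13), and for cpx with array weights (0.32). When 1 array was left out, the difference lay on both sides of 0 for CG10814 (-0.61 to 0.10), Rh5 (-0.01 to 0.66), alpha-Est2 (-0.02 to 0.46), Tm1 (-0.14 to 0.19), cac (-0.39 to 0.29) and cpx (-0.33 to 0.37). Among the further list members given, it turned with scaled arrays for AcCoAS, CG11841, CG3999, CG4825, CG6385, Cyp9b2, Got1, Hmgs, Men, ade3, bmm and dob, and in one dye orientation for AcCoAS, CG11841, CG16712, CG3999, CG4825, CG6385, CG8745 (0.51), Cyp6g1, Cyp9b2, Got2 (-0.10), Hmgs, Lsd-1, bmm, bur, nimB4 and sNPF. It turned when 1 array was left out for AcCoAS, CG11841, CG3999, CG6385, Cyp6g1, Cyp9b2, Hmgs, PebIII, bmm, bur, nimB4 and sNPF, with array weights for AcCoAS, CG11841, bmm and bur, and with centred arrays for PebIII. The cause was not tested. Signal over background was not used here, so that a low signal cannot be told from an unreliable ratio.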
